A study of Mus musculus with 14 samples.

Results

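The combined state described here is that of Dnmt-TKO mouse embryonic stem cells given PRT4165, an inhibitor of Polycomb repressive complex 1 (PRC1), set against wild-type cells given the DMSO vehicle alone. It was read from 2 libraries of each group, 4 of the 14 libraries of the series. All 16397 genes that passed a count filter on these groups were taken, of 37991 gene IDs in the table. The cells in every group were of the J1 129S4/SvJae background and were labelled mESC. Dnmt-TKO is the usual name of a J1 line in which Dnmt1, Dnmt3a and Dnmt3b, which encode the DNA methyltransferases, are all disrupted, and such a line is 1 clonal derivative of its parent. A further pair of libraries came from Dnmt-TKO cells given DMSO, and another pair from wild-type cells given PRT4165. These show which of the 2 perturbations a difference goes with. Neither the inhibitor's dose nor how long it was applied is given in the sources used here.

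DNA methylation of CpG-rich promoters keeps a group of germline genes silent in embryonic stem cells, and cells without the 3 enzymes lose that mark genome-wide. PRC1 is the ubiquitin ligase of histone H2A built around RING1 or RNF2. Its canonical forms act with PRC2 at promoters of developmental regulators, and a variant form containing PCGF6, MGA, L3MBTL2 and E2F6 acts at germline promoters, recognising E-box and E2F-type sequences. The series concerns the epigenetic reprogramming of primordial germ cells on their way to gonocytes, in which germline genes are switched on.

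Libraries of the 4 groups held 25588815 to 37399837 counts, and each group's pair differed by more than counting noise (chi-square per degree of freedom 1.82 to 9.06). At least 1 read was counted for 23264 and 23485 gene IDs in TKO inhibitor libraries, and for 19542 and 19761 in wild-type vehicle libraries. Values are given below as CPM, the counts relative to a fixed library total, scaled by edgeR's TMM factors. Differences are log2 differences with their standard error (SE), and a gene is called where edgeR's quasi-likelihood test gave a Benjamini-Hochberg adjusted p under 0.05 over all 16397 genes. The labels number the replicates without saying that they were separate cultures, so the p-values measure the spread between these libraries, which may be technical. Among the genes named below, H19, Grhl2, Myh14, Mir17hg, Jun, Hspa1a, Hspd1, Pou5f1, Sycp3, Piwil4, Tfcp2l1, Tbx3, Gata3, Krt7, Krt8, Sqstm1, Cdkn1a, Ccnd3, Rnf2, Cbx7, Dnmt3a, Dnmt3l, Tet2, Meg3, Cd81, Plagl1, Islr2, Axin2, Tmprss9, Ccdc13, Dleu7, Nlgn3, mt-Nd1 and Msc share exon sequence with another annotated gene. The strand setting of the counting is not given in the sources used here, so reads of such pairs cannot be told apart.

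Transcripts of all 3 targeted genes were lower in the combined state but remained detectable, so the labels' genotype shows as a lower level and not as absence. Dnmt1, the maintenance methyltransferase, had 143 and 158 CPM in TKO inhibitor libraries, against 424 and 433 CPM in wild-type vehicle libraries (log2 difference −1.51, SE 0.049). Dnmt3b, a de novo methyltransferase, had 49.9 and 47.0 CPM, against 178 and 197 CPM (−1.95, SE 0.057). Dnmt3a, the other de novo enzyme, had 38.7 and 38.9 CPM, against 102 and 98.9 CPM (−1.38, SE 0.049). Neither pair of libraries overlapped the other at any of the 3 genes. PRT4165 acts on the protein complex, so no transcript checks the treatment.

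Most genes differed between the combined state and the unperturbed one. Of 16397 genes, 6543 (39.9%) were called higher and 6093 (37.2%) lower, together 77.1% of those tested, with a median log2 difference over all genes of 0.02. The large differences ran mostly upward: 3766 genes (23.0%) were called higher by more than 2-fold and 1317 (8.03%) lower by more than 2-fold. Many of the genes that rose were at low levels in wild-type vehicle cells. Of the 6543 called higher, 2734 had a mean under 1 CPM in wild-type vehicle cells, 252 of them with no count in either library, and their median level was 6.83 CPM in TKO inhibitor cells and 2.12 CPM in wild-type vehicle cells. Genes that fell were expressed genes, with a median of 26.4 CPM in TKO inhibitor cells and 40.3 CPM in wild-type vehicle cells. Libraries of the 2 groups did not overlap at 14301 genes (87.2%). The biological coefficient of variation was 3.72%, so that small differences passed the test. With library size alone as the scale, in place of TMM factors, all genes shifted by 0.136 on the log2 scale and the calls split into 7625 higher and 4824 lower, 61.2% higher against 51.8% with TMM. Because these are bulk libraries, fewer cells of a type and less RNA per cell cannot be told apart.

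**Figure D1:**
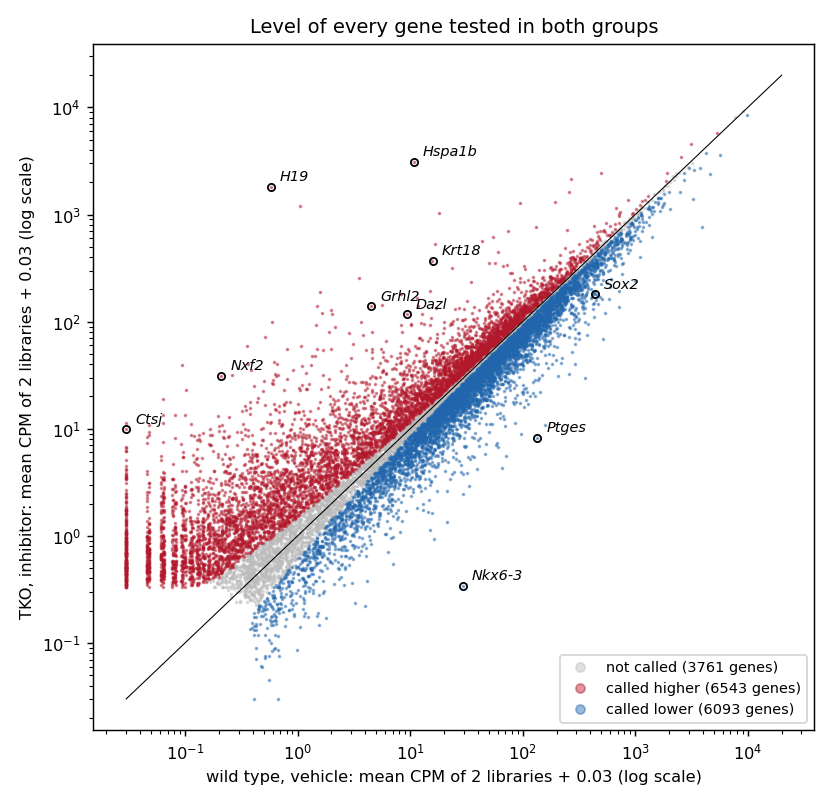
Mean level of each of the 16397 genes tested in TKO inhibitor cells (vertical) and wild-type vehicle cells (horizontal), in CPM plus 0.03 on log axes. Genes called higher (red, 6543) fan out on the left, at low wild-type levels, and genes called lower (blue, 6093) lie close under the line of equal levels. Circles mark 10 genes named in the text.

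Either perturbation alone gave part of this state, and the 2 steps that end in it are described by their own tests. Against wild-type cells given the same inhibitor, TKO inhibitor cells had 5987 genes called higher (36.5%) and 5689 lower (34.7%). Against TKO cells given vehicle, they had 3313 genes called higher (20.2%) and 3301 lower (20.1%). All these comparisons use the same TKO inhibitor libraries. Each perturbation alone, set against the same wild-type vehicle libraries, had 35.0% of genes called higher and 34.5% lower for the genotype, and 19.6% higher and 18.6% lower for the inhibitor. A gene was called above or below all other groups when TKO inhibitor cells differed in 1 direction from each of the 3 other groups and the largest of the 3 p-values passed after adjustment. By this rule 1062 genes (6.48%) lay above all other groups and 1038 (6.33%) below. These counts depended on single libraries. Without TKO inhibitor replicate 2 they were 528 above and 585 below, without TKO vehicle replicate 1 the count above was 683, without TKO vehicle replicate 2 it was 651, and DESeq2 gave 621 above.

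The genes furthest above all other groups were Nxf2, Myh14, Alox5, Tdrd9, Irx5, Cyp4a12b, Tmprss9, Ccdc13, Tuba3b and Grhl2. Nxf2, an X-linked mRNA export factor of male germ cells, had 28.3 and 33.8 CPM in TKO inhibitor libraries, 1.92 and 2.25 CPM in TKO vehicle libraries, 1.20 and 1.27 CPM in wild-type inhibitor libraries, and 0.143 and 0.217 CPM in wild-type vehicle libraries. Its level in the combined state was thus more than 10-fold above each group with a single perturbation (log2 difference 3.89 from TKO vehicle and 4.66 from wild-type inhibitor). The inhibitor's step at Nxf2, 3.89 in TKO cells and 2.72 in wild-type cells, was not called different between them. That difference was 1.17 (SE 0.55, adjusted p = 0.26, edgeR quasi-likelihood test). Grhl2, a transcription factor of epithelial cells, had 127 and 151 CPM in TKO inhibitor libraries, 45.7 and 47.8 CPM in TKO vehicle libraries, 14.5 and 13.2 CPM in wild-type inhibitor libraries, and 3.99 and 4.93 CPM in wild-type vehicle libraries. Each perturbation alone raised Grhl2, and the 4 groups formed separate steps. Myh14, a non-muscle myosin heavy chain, had 77.1 and 84.5 CPM in TKO inhibitor libraries, 17 and 15 CPM in TKO vehicle libraries, 9.47 and 9.59 CPM in wild-type inhibitor libraries, and 8.74 and 8.19 CPM in wild-type vehicle libraries. The inhibitor was followed by a log2 difference of 2.34 at Myh14 in TKO cells and of 0.17 in wild-type cells, and the difference between these responses was 2.16 (edgeR quasi-likelihood test, adjusted p = 6.07e-11). Such a difference in response was called for 1.63% of genes in this direction and 2.29% in the other. In untreated cells of a separate experiment Myh14 had 20.7 and 21.5 CPM in Dnmt-TKO libraries and 18.9 and 15.4 CPM in wild-type libraries (log2 difference 0.30, adjusted p = 0.0944, edgeR), where 25.9% of 16303 genes were called higher and 24.3% lower. Alox5, the arachidonate 5-lipoxygenase, had 6.46 and 6.52 CPM in TKO inhibitor libraries and at most 1.76 CPM in any other library.

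The genes furthest below all other groups were Mir17hg, Zfp931, Zfp759, Slitrk5, Calhm5, Dleu7, Mterf1b, Zfp971, Tdgf1 and Tlr5. Mir17hg, the host transcript of the miR-17-92 cluster of growth-promoting miRNAs, had 5.78 and 8.02 CPM in TKO inhibitor libraries, 17.9 and 18 CPM in TKO vehicle libraries, 12.8 and 18.5 CPM in wild-type inhibitor libraries, and 44.6 and 37.5 CPM in wild-type vehicle libraries. All 10 stood closer to the other groups than the genes above did: their smallest log2 difference from another group ran between −1.16 and −0.82. Zfp931 and Zfp759, zinc-finger genes, had 2.71 and 2.89 CPM and 2.30 and 2.76 CPM in TKO inhibitor libraries, against 11.9 and 12.3 CPM and 10.6 and 10.5 CPM in wild-type vehicle libraries.

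**Figure D2:**
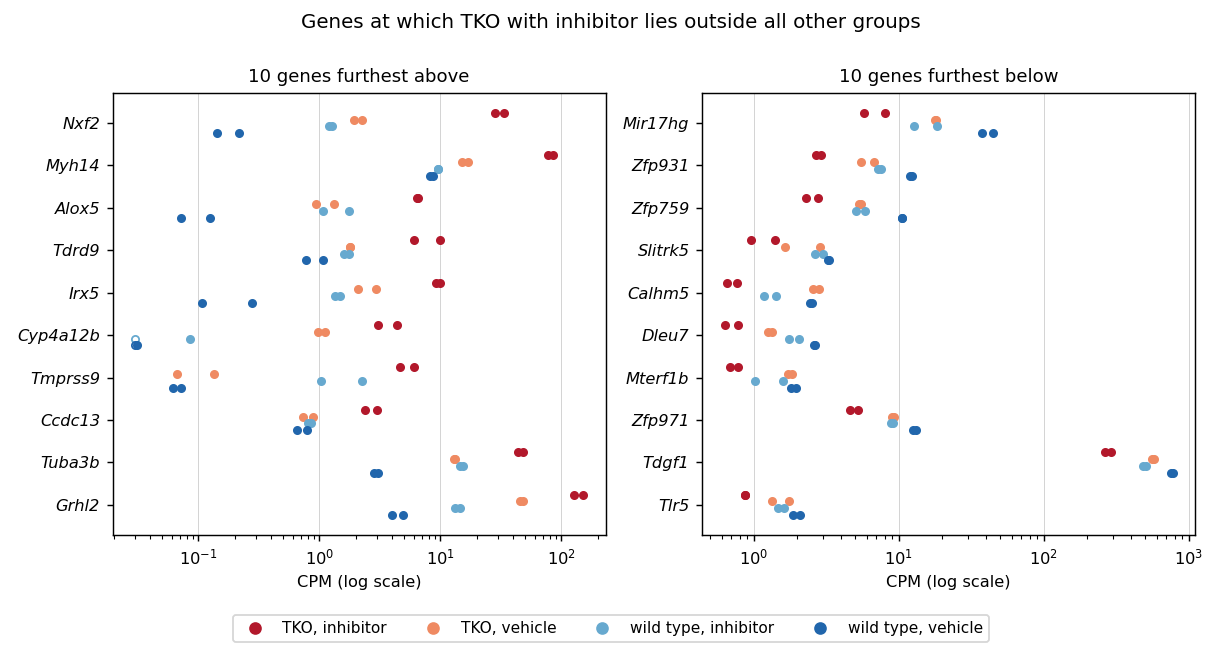
CPM in each of the 8 libraries, on a log axis, for the 10 genes furthest above (left) and the 10 furthest below (right) all other groups. Red points, TKO inhibitor libraries, stand apart from the orange, light blue and dark blue points of the other groups at every gene. An open point at 0.03 stands for a library under that level.

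Gene lists were then described by how many tested members were called and by their median, beside the same values for all genes. The share called in each direction is drawn for the larger lists with the shares of all genes as lines. In the further comparisons, too, each list's counts stand beside all genes: 36.5% called higher and 34.7% lower against wild-type inhibitor cells, 20.2% higher and 20.1% lower against TKO vehicle cells, and 6.48% above and 6.33% below all other groups.

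**Figure D3:**
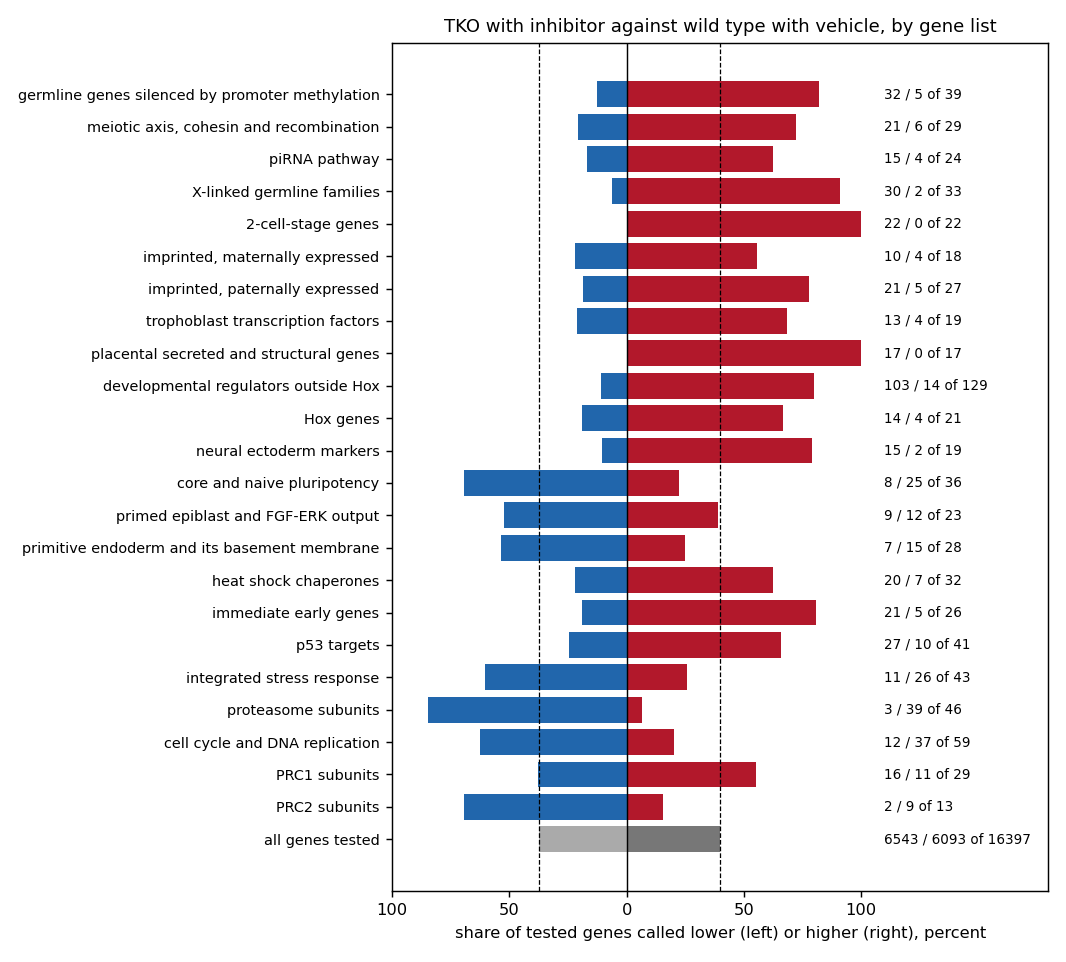
Share of the tested members of 23 gene lists called higher (red, right) or lower (blue, left) in TKO inhibitor cells than in wild-type vehicle cells, with all 16397 genes in grey and as dashed lines. Numbers on the right are members called higher, called lower and tested. Members without a wild-type vehicle count could pass the filter only as higher. They numbered 9 in the placental list, 9 among developmental regulators outside Hox, 7 in the X-linked germline list and 3 among neural ectoderm markers. The 2-cell-stage and Hox lists had 2 each, and the promoter-methylation germline and trophoblast factor lists 1 each. Bars of these lists are not to be ranked against others. Proteasome, pluripotency and PRC2 lists reach furthest to the left.

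Germline genes that promoter methylation is known to silence were mostly higher in the combined state. Of 39 tested members, 32 were called higher and 5 lower, with a median log2 difference of 1.22 against 0.02 for all genes. Of these 39, 30 were called higher against wild-type cells under the same inhibitor, where 36.5% of all genes were called higher. Against TKO vehicle cells 17 of the 39 were called higher (11 without TKO inhibitor replicate 2), where 20.2% of all genes were. Above all other groups lay 11 members and below them none, beside 6.48% and 6.33% of all genes. Dazl, an RNA-binding protein that licenses germ cells, had 115 and 119 CPM in TKO inhibitor libraries, 89.6 and 85.4 CPM in TKO vehicle libraries, 15.4 and 15.6 CPM in wild-type inhibitor libraries, and 9.95 and 8.56 CPM in wild-type vehicle libraries. The log2 difference from wild-type vehicle cells was 3.67 (SE 0.067), and that from TKO vehicle cells was 0.42.

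Tdrd9, Tuba3b, Tex101 and Taf7l were the 4 members of this list furthest above all other groups. Their promoters are shown because the variant PRC1 that acts at germline genes recognises E-box and E2F-type sequence. Each runs from 250 bases before to 50 bases after the gene start (RefSeq, GRCm38.p6). Capitals mark CACGTG, which reads the same on both strands, and GCGGGA or its complement TCCCGC.
Tuba3b, chr6:145615713-145616012, plus strand: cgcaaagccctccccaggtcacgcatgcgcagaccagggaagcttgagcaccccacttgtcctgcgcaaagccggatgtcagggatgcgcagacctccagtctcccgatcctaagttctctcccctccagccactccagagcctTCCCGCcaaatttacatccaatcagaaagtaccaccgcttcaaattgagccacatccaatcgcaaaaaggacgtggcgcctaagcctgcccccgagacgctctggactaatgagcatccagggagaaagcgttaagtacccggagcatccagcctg
Tdrd9, chr12:111971309-111971608, plus strand: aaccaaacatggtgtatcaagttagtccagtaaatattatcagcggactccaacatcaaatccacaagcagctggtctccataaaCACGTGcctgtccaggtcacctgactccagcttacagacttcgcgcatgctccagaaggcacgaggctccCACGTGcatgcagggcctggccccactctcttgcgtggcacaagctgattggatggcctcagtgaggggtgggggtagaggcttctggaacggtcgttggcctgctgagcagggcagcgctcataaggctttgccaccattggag
Taf7l, chrX:134476441-134476740, minus strand: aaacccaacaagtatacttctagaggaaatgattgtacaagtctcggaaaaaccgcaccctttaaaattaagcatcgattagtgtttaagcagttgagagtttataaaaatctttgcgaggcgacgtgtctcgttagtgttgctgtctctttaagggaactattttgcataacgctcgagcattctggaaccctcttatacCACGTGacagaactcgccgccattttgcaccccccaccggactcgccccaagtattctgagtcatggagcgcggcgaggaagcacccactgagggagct
Tex101, chr7:24672001-24672300, minus strand: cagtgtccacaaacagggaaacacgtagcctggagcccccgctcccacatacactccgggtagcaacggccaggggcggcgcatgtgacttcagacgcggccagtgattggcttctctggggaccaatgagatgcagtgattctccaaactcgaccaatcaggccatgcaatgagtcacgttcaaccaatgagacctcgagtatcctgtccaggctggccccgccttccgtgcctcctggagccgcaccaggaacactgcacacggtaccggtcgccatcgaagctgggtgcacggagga
The Tuba3b window held 1 TCCCGC, the Tdrd9 window 2 CACGTG and the Taf7l window 1 CACGTG, whereas neither sequence occurred in the Tex101 window. Of 36 listed germline genes with a window, 14 (38.9%) held CACGTG and 15 (41.7%) held GCGGGA or TCCCGC, with 7 holding both. Over all 27025 RefSeq windows the shares were 7.24% and 20%. A match is a description of the letters and was not tested against expression.

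Tuba3b, an alpha-tubulin of the testis, had 43.4 and 47.9 CPM in TKO inhibitor libraries, 13.2 and 12.9 CPM in TKO vehicle libraries, 14.6 and 15.4 CPM in wild-type inhibitor libraries, and 2.85 and 3.07 CPM in wild-type vehicle libraries. Each perturbation alone gave a similar intermediate level, and the combined level was above both (log2 differences of 1.80 from TKO vehicle and 1.61 from wild-type inhibitor). The inhibitor's step at Tuba3b was smaller in TKO cells (1.80) than in wild-type cells (2.33). That difference was −0.53 (adjusted p = 0.0354, edgeR quasi-likelihood test). Taf7l, an X-linked TFIID subunit of spermatocytes, had 16.4 and 19.7 CPM in TKO inhibitor libraries, 8.23 and 7.75 CPM in TKO vehicle libraries, 7.28 and 9.10 CPM in wild-type inhibitor libraries, and 2.00 and 2.23 CPM in wild-type vehicle libraries. It followed the same order as Tuba3b, with inhibitor steps of 1.17 in TKO and 1.93 in wild-type cells. These steps differed by −0.76 (adjusted p = 0.0378, edgeR quasi-likelihood test). Tdrd9, a Tudor-domain helicase that silences transposons through piRNAs, had 6.05 and 10 CPM in TKO inhibitor libraries and between 0.776 and 1.79 CPM in all other libraries. Tex101, a surface protein of germ cells, had 9.83 and 11.6 CPM in TKO inhibitor libraries, 3.94 and 4.29 CPM in TKO vehicle libraries, 1.63 and 1.1 CPM in wild-type inhibitor libraries, and 0.713 and 0.683 CPM in wild-type vehicle libraries. Tex15, which acts with the piRNA pathway, had 28.3 and 37.1 CPM in TKO inhibitor libraries, 15.5 and 18.2 CPM in TKO vehicle libraries, 9.70 and 10.6 CPM in wild-type inhibitor libraries, and 5.74 and 6.52 CPM in wild-type vehicle libraries.

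Other germline genes went mainly with 1 perturbation. Asz1, a piRNA factor of germ granules, had 11.4 and 11.3 CPM in TKO inhibitor libraries and 10.8 and 12 CPM in TKO vehicle libraries, while no wild-type library exceeded 0.0357 CPM. Fkbp6, a co-chaperone of piRNA loading, had 47.8 and 48.2 CPM in TKO inhibitor libraries, 41.8 and 43.0 CPM in TKO vehicle libraries, and 1.32 to 1.49 CPM in the wild-type libraries. Sycp3, a protein of the meiotic chromosome axis, went with the inhibitor: it had 6.65 and 5.84 CPM in TKO inhibitor libraries, 1.79 and 1.61 CPM in TKO vehicle libraries, 6.19 and 6.86 CPM in wild-type inhibitor libraries, and 2.10 and 2.20 CPM in wild-type vehicle libraries. Mael, a piRNA factor, had 30.2 and 32.9 CPM in TKO inhibitor libraries, 14.4 and 15.8 CPM in TKO vehicle libraries, 35.4 and 38.9 CPM in wild-type inhibitor libraries, and 20.3 and 22.3 CPM in wild-type vehicle libraries. Neither Sycp3 nor Mael was called higher in the combined state than in wild-type cells with inhibitor. The exceptions included Brdt, a bromodomain protein of spermatocytes, which had 0.794 and 1.34 CPM in TKO inhibitor libraries, against 7.63 and 8.63 CPM in wild-type vehicle libraries (−2.95, SE 0.18).

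**Figure D4:**
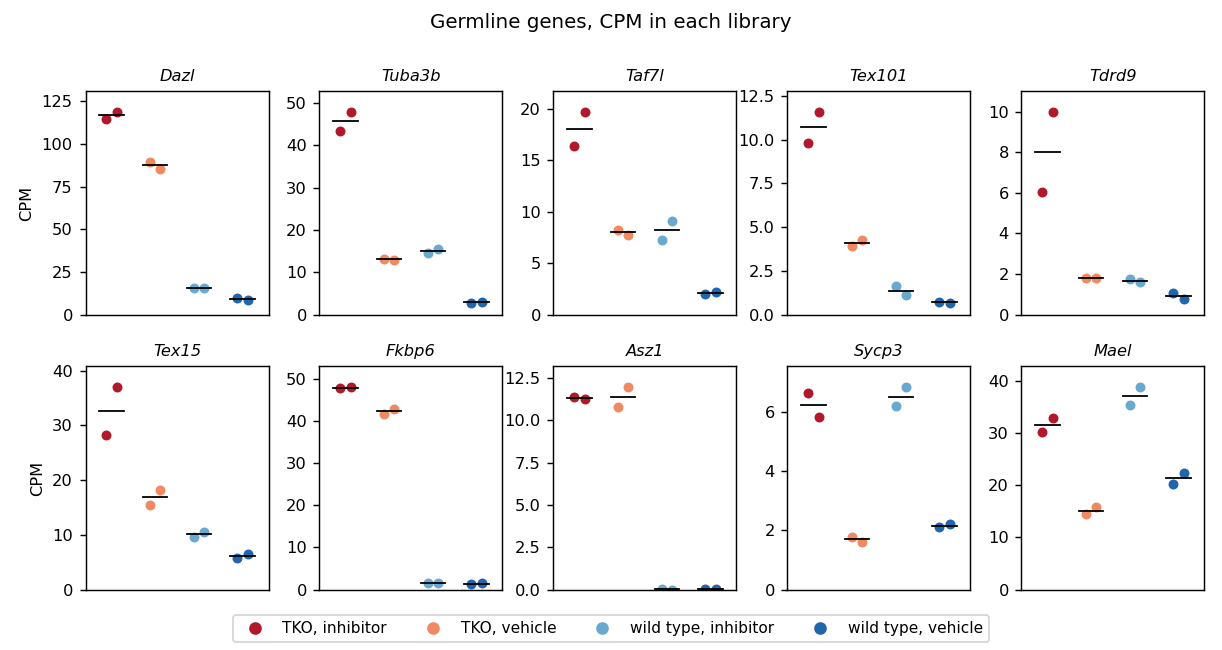
CPM of 10 germline genes in each of the 8 libraries, with a bar at the mean of each pair. Dazl, Tuba3b, Taf7l, Tex101, Tdrd9 and Tex15 have their highest pair in TKO inhibitor cells (red); Fkbp6 and Asz1 are high in both TKO groups, and Sycp3 and Mael in both inhibitor groups.

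Meiotic and piRNA genes behaved in the same mixed way. Of 29 tested genes of the meiotic axis, cohesin and recombination, 21 were called higher and 6 lower (median 1.22), of 11 genes of meiotic entry 9 were called higher and 2 lower, and of 24 piRNA pathway genes 15 were called higher and 4 lower (median 0.56). Some of these genes also belong to the germline list above. Smc1b, a meiotic cohesin subunit, had 51.7 and 56.4 CPM in TKO inhibitor libraries, against 4.49 and 3.57 CPM in wild-type vehicle libraries (3.75, SE 0.094). Hormad1, which monitors chromosome axes, had 48.0 and 47.3 CPM, against 7.13 and 6.33 CPM (2.83, SE 0.075), and Tdrd12, a piRNA factor, had 59.9 and 58.6 CPM, against 8.70 and 7.88 CPM (2.84, SE 0.070). Among the falls were Piwil1, Piwil4 and Rnf17. Piwil4, a nuclear PIWI protein, had 4.08 and 4.04 CPM in TKO inhibitor libraries, against 13.9 and 12.7 CPM in wild-type vehicle libraries, and Rnf17 had 62.4 and 62.5 CPM, against 125 and 115 CPM.

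X-linked germline families and genes of the 2-cell stage rose from near silence. Of 43 X-linked members found, 33 passed the count filter and 10 were not tested. Of the 33, 30 were called higher and 2 lower (1 lower without TKO inhibitor replicate 2 or wild-type vehicle replicate 2), with a median log2 difference of 5.82, or 4.80 when the 7 members without a count in wild-type vehicle libraries are set at a floor of 3 counts over the group. Those 7 could pass the filter only through TKO inhibitor libraries, so their direction was fixed by it and the count describes what passed. Rhox9, a homeobox gene of the Rhox cluster, had 78.0 and 80.9 CPM in TKO inhibitor libraries, 58.6 and 54.6 CPM in TKO vehicle libraries, and 1.71 to 2.14 CPM in the wild-type libraries. Xlr3c, of the Xlr family, had 42.2 and 38.5 CPM in TKO inhibitor libraries and 43.9 and 43.9 CPM in TKO vehicle libraries, against 0.279 to 0.742 CPM in the wild-type libraries. Members of these families are near-identical, so the split of reads between them is uncertain.

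All 22 tested genes of the 2-cell stage were called higher, with a median of 5.07, or 4.95 with 2 members at the floor, whose direction the filter fixed as well. The combined state was not their peak. Against TKO vehicle cells 13 of the 22 were called lower and 1 higher, though 8 were called lower without TKO vehicle replicate 1, none was called higher without TKO inhibitor replicate 2, and DESeq2 called 6 lower. Zscan4d, a zinc-finger gene of the Zscan4 cluster, had 7.45 and 9.13 CPM in TKO inhibitor libraries, 16.2 and 14.7 CPM in TKO vehicle libraries, 0.228 and 0.327 CPM in wild-type inhibitor libraries, and 0.357 and 0.0621 CPM in wild-type vehicle libraries. Tmem92 had 8.79 and 8.23 CPM in TKO inhibitor libraries, 13.7 and 10.2 CPM in TKO vehicle libraries, and at most 0.285 CPM in the wild-type libraries. The summed level of the list was 74.1 and 85.1 CPM in TKO inhibitor libraries and 127.5 and 114 CPM in TKO vehicle libraries, against 3.745 and 2.917 CPM in wild-type vehicle libraries. Usp17le, a deubiquitinase gene of a multicopy family, went the other way from Zscan4d, with 6.10 and 8.14 CPM in TKO inhibitor libraries and 4.48 and 4.23 CPM in TKO vehicle libraries. Dppa3, a maternal factor that protects methylation in the zygote, had 9.12 and 9.16 CPM in TKO inhibitor libraries, 16.6 and 15.3 CPM in TKO vehicle libraries, and 0.399 to 0.776 CPM in the wild-type libraries.

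Imprinted genes moved in both directions, more of them upward. Of 18 tested maternally expressed genes 10 were called higher and 4 lower (median 0.75), and of 27 paternally expressed genes 21 were called higher and 5 lower (median 1.06). H19, a maternally expressed noncoding RNA, had 1830 and 1820 CPM in TKO inhibitor libraries, 1430 and 1370 CPM in TKO vehicle libraries, 0.742 and 0.572 CPM in wild-type inhibitor libraries, and 0.535 and 0.559 CPM in wild-type vehicle libraries (11.69, SE 0.090, adjusted p = 1.63e-29, edgeR quasi-likelihood test). Peg10, a retrotransposon-derived gene needed in the placenta, had 2170 and 2120 CPM in TKO inhibitor libraries, 1640 and 1590 CPM in TKO vehicle libraries, 235 and 213 CPM in wild-type inhibitor libraries, and 280 and 256 CPM in wild-type vehicle libraries. H19 and Peg10 both lay above all other groups, with a log2 step of 0.38 and 0.41 between the TKO groups. Peg3, Plagl1 and Sfmbt2 rose by 3.74, 9.11 and 4.47 on the log2 scale, and Meg3 by 1.83. In the opposite direction went Cd81, a tetraspanin, with 65.4 and 66.0 CPM in TKO inhibitor libraries against 172 and 180 CPM in wild-type vehicle libraries. Zfp57, the zinc-finger protein that maintains methylation at imprinted regions, is not a member of these 2 lists. It fell as well, with 217 and 207 CPM in TKO inhibitor libraries against 586 and 605 CPM in wild-type vehicle libraries. Cd81 and Zfp57 lay below all other groups.

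Trophoblast and placental genes were part of the combined state. All 10 trophoblast markers used to check for that cell type were called higher, and their summed level was 692 to 699 CPM in TKO inhibitor libraries, 483 to 495 CPM in TKO vehicle libraries, 65.6 to 67.7 CPM in wild-type inhibitor libraries and 33.3 to 39.8 CPM in wild-type vehicle libraries. Elf5, Tpbpa and Prl3d1 had no count in wild-type vehicle libraries. These 3 of the 10 could pass the filter only as higher, so their direction was fixed by it. The part of such cells in the other differences was not tested. Of 19 trophoblast transcription factors 13 were called higher and 4 lower (median 2.36), and 7 lay above all other groups (4 without TKO vehicle replicate 2). Hand1, needed for giant cells, had 57.1 and 62.1 CPM in TKO inhibitor libraries, 40.5 and 46.7 CPM in TKO vehicle libraries, 0.685 and 0.776 CPM in wild-type inhibitor libraries, and 0.250 and 0.403 CPM in wild-type vehicle libraries. Tfap2c had 139 and 138 CPM in TKO inhibitor libraries, 101 and 98.7 CPM in TKO vehicle libraries, 30.4 and 32.8 CPM in wild-type inhibitor libraries, and 12.3 and 11.1 CPM in wild-type vehicle libraries. Both rose further with the inhibitor on top of the genotype, and so did Gata2, at 66.6 and 67.1 CPM in TKO inhibitor libraries against 49.9 and 47.7 CPM in TKO vehicle libraries. Cdx2, the early lineage regulator, was called higher (2.47-fold) at a low level, with 2.96 and 2.55 CPM in TKO inhibitor libraries, 3 and 2.31 CPM in TKO vehicle libraries, and 1.32 and 0.931 CPM in wild-type vehicle libraries. Tead4, which acts upstream of Cdx2, fell to 20.2 and 18.5 CPM in TKO inhibitor libraries, against 78.9 and 90.8 CPM in wild-type vehicle libraries, and Tbx3 fell to 137 and 141 CPM, against 333 and 360 CPM.

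Of 33 placental secreted and structural genes 17 passed the count filter and were called higher, and 9 of these had no count in wild-type vehicle libraries. A gene silent in wild-type cells can pass the filter only through the group where it is high, so this count is a description of what passed. Ctsj, a placental cathepsin, had 10.4 and 9.44 CPM in TKO inhibitor libraries, 7.25 and 7.61 CPM in TKO vehicle libraries, and no count in any wild-type library, at least 200-fold higher in TKO inhibitor cells than the floor of 3 counts over the wild-type vehicle pair. Prl7d1, of the prolactin family, was at least 225-fold higher by the same floor. Plac1, an X-linked placental gene, had 29.9 and 26.4 CPM in TKO inhibitor libraries, against 0.392 and 0.559 CPM in wild-type vehicle libraries. All 5 tested simple epithelial keratins were called higher and 4 lay above all other groups. Krt18 had 371 and 369 CPM in TKO inhibitor libraries, 261 and 247 CPM in TKO vehicle libraries, 21.8 and 20.6 CPM in wild-type inhibitor libraries, and 17.9 and 13.7 CPM in wild-type vehicle libraries. Krt8, its partner filament protein, had 612 and 616 CPM in TKO inhibitor libraries, against 56.5 and 52.4 CPM in wild-type vehicle libraries, and Krt7 and Krt19 rose by 5.40 and 4.68 on the log2 scale.

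Developmental regulators that Polycomb complexes are known to occupy were higher as a group. Of 129 tested regulators outside the Hox clusters, 103 were called higher and 14 lower, with a median log2 difference of 2.93. A further 30 that were found did not pass the filter. Among those tested, 9 had no count in wild-type vehicle libraries, so the filter fixed their direction. The median was also 2.93 with these 9 set at the floor of 3 counts. Against TKO vehicle cells 52 of these 129 were called higher and 10 lower (34 higher with DESeq2), and against wild-type inhibitor cells 82 were called higher and 15 lower. With the genotype alone, against wild-type vehicle cells, 86 were called higher and 15 lower, beside 35.0% and 34.5% of all genes. With the inhibitor alone 60 were called higher and 5 lower, beside 19.6% and 18.6%. Above all other groups lay 28, a count that fell to between 13 and 17 with DESeq2 (13), without TKO vehicle replicate 1 (17) or 2 (15), or without TKO inhibitor replicate 1 (16) or 2 (14). Irx5, an Iroquois homeobox gene, had 9.20 and 9.97 CPM in TKO inhibitor libraries, 2.93 and 2.08 CPM in TKO vehicle libraries, 1.48 and 1.35 CPM in wild-type inhibitor libraries, and 0.107 and 0.279 CPM in wild-type vehicle libraries. Gata3 had 23.5 and 23.8 CPM in TKO inhibitor libraries, against 1.25 and 1.06 CPM in wild-type vehicle libraries (4.36, SE 0.13). Nkx6-3 and Prrx2 were among the falls. Nkx6-3, a homeobox gene of the gut, had 0.438 and 0.186 CPM in TKO inhibitor libraries and 0.101 and 0.369 CPM in TKO vehicle libraries, against 31.1 and 27.4 CPM in wild-type vehicle libraries, and Prrx2, of limb mesenchyme, had 2.27 and 2.55 CPM, against 28.3 and 31.1 CPM.

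Of 21 tested Hox genes, 14 were called higher and 4 lower (median 1.81). Another 17 Hox genes that were found did not pass the filter. It also fixed the direction of 2 tested members without a wild-type vehicle count. Hoxd13, the most 5′ gene of its cluster, had 8.73 and 8.73 CPM in TKO inhibitor libraries, 5.39 and 5.27 CPM in TKO vehicle libraries, 2.57 and 2.45 CPM in wild-type inhibitor libraries, and 0.856 and 0.745 CPM in wild-type vehicle libraries. Hoxa5 fell, at 0.547 and 0.373 CPM in TKO inhibitor libraries against 2.07 and 2.54 CPM in wild-type vehicle libraries. Of 19 tested neural ectoderm markers, 15 were called higher and 2 lower (median 2.33). The filter fixed the direction of 3 of them, which had no wild-type vehicle count, and 4 others found did not pass it. Pax6, a regulator of eye and forebrain, had 24.3 and 21.4 CPM in TKO inhibitor libraries, 30.7 and 31.3 CPM in TKO vehicle libraries, and 0.571 and 0.869 CPM in wild-type vehicle libraries. Stmn2, a neuronal microtubule regulator, had 173 and 158 CPM in TKO inhibitor libraries, 220 and 221 CPM in TKO vehicle libraries, and 12.9 and 10.1 CPM in wild-type vehicle libraries. Pax6 and Stmn2 were therefore lower with the inhibitor among TKO cells. The list as a whole was divided in that comparison, with 5 of the 19 markers called higher and 3 lower. Over all genes 20.2% were called higher and 20.1% lower. Of 46 genes of Wnt signalling 27 were called higher and 15 lower, among them Axin2, a feedback target, at 15.2 and 17 CPM in TKO inhibitor libraries against 2.50 and 3.66 CPM in wild-type vehicle libraries. Of 20 tested fibroblast genes 11 were called higher and 7 lower, and the filter fixed the direction of 2 of the 20, which had no wild-type vehicle count. The summed level of 8 fibroblast markers was 12.3 to 13.7 CPM in TKO inhibitor libraries and 13.6 to 14.5 CPM in wild-type vehicle libraries, with Col3a1, Dcn, Lum and Postn at 0 in the wild-type vehicle pair.

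Pluripotency genes fell. Of 36 core and naive pluripotency genes, 25 were called lower and 8 higher (median −0.67). Against TKO vehicle cells 22 were called lower, and against wild-type inhibitor cells 21 were called lower, while 8 lay below all other groups. The summed level of 7 stem cell markers was 2960 to 3060 CPM in TKO inhibitor libraries, 3670 to 3760 CPM in TKO vehicle libraries, 3760 to 3920 CPM in wild-type inhibitor libraries and 4270 to 4330 CPM in wild-type vehicle libraries, so the labelled cell type's markers remained high in every group. Of these 7 markers, 5 were called lower and 2 higher in TKO inhibitor cells than in wild-type vehicle cells. Sox2, a core factor, had 184 and 176 CPM in TKO inhibitor libraries, 402 and 405 CPM in TKO vehicle libraries, 264 and 263 CPM in wild-type inhibitor libraries, and 426 and 453 CPM in wild-type vehicle libraries. The Sox2 difference was −1.29 (SE 0.045). The inhibitor was followed by a step of −1.16 in TKO cells and −0.74 in wild-type cells, and these differed by −0.43 (adjusted p = 0.000191, edgeR). Nanog, a naive-state regulator, had 362 and 352 CPM in TKO inhibitor libraries, 500 and 487 CPM in TKO vehicle libraries, 591 and 575 CPM in wild-type inhibitor libraries, and 654 and 679 CPM in wild-type vehicle libraries. Tdgf1, the Nodal co-receptor, had 290 and 266 CPM in TKO inhibitor libraries, 572 and 554 CPM in TKO vehicle libraries, 511 and 487 CPM in wild-type inhibitor libraries, and 757 and 773 CPM in wild-type vehicle libraries. Sox2, Nanog and Tdgf1 all lay below the other groups.

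Pou5f1, which encodes OCT4, went with the genotype alone: it had 587 and 559 CPM in TKO inhibitor libraries, 535 and 574 CPM in TKO vehicle libraries, 1000 and 978 CPM in wild-type inhibitor libraries, and 1010 and 892 CPM in wild-type vehicle libraries. Klf5 had 71.8 and 67 CPM in TKO inhibitor libraries, 67.3 and 66.6 CPM in TKO vehicle libraries, and 464 to 578 CPM in the wild-type libraries (−2.91, SE 0.071). Tfcp2l1, a naive-state factor on chromosome 1, had 193 and 192 CPM, against 737 and 710 CPM in wild-type vehicle libraries. Of 23 primed epiblast and FGF-ERK output genes, 12 were called lower and 9 higher. Dusp6 and Spry2, feedback inhibitors of ERK signalling, fell to 32.2 and 30.8 CPM and to 62.5 and 60.4 CPM in TKO inhibitor libraries, against 146 and 148 CPM and 292 and 295 CPM in wild-type vehicle libraries, and both lay below all other groups. Zic2, a primed-state factor, rose to 62.2 and 62.1 CPM, against 2.78 and 3.32 CPM. Of 28 primitive endoderm genes, 15 were called lower and 7 higher (median −0.27). Sox7, an endoderm factor, fell to 5.42 and 5.53 CPM in TKO inhibitor libraries, against 33.2 and 38.3 CPM in wild-type vehicle libraries, and Lamc1, a laminin chain on chromosome 1, fell to 611 and 631 CPM, against 1390 and 1440 CPM. The inhibitor response of 10 of these 28 was lower in TKO than in wild-type cells, where 2.29% of all genes were so called, though 6 were called without TKO vehicle replicate 2 or TKO inhibitor replicate 1.

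**Figure D5:**
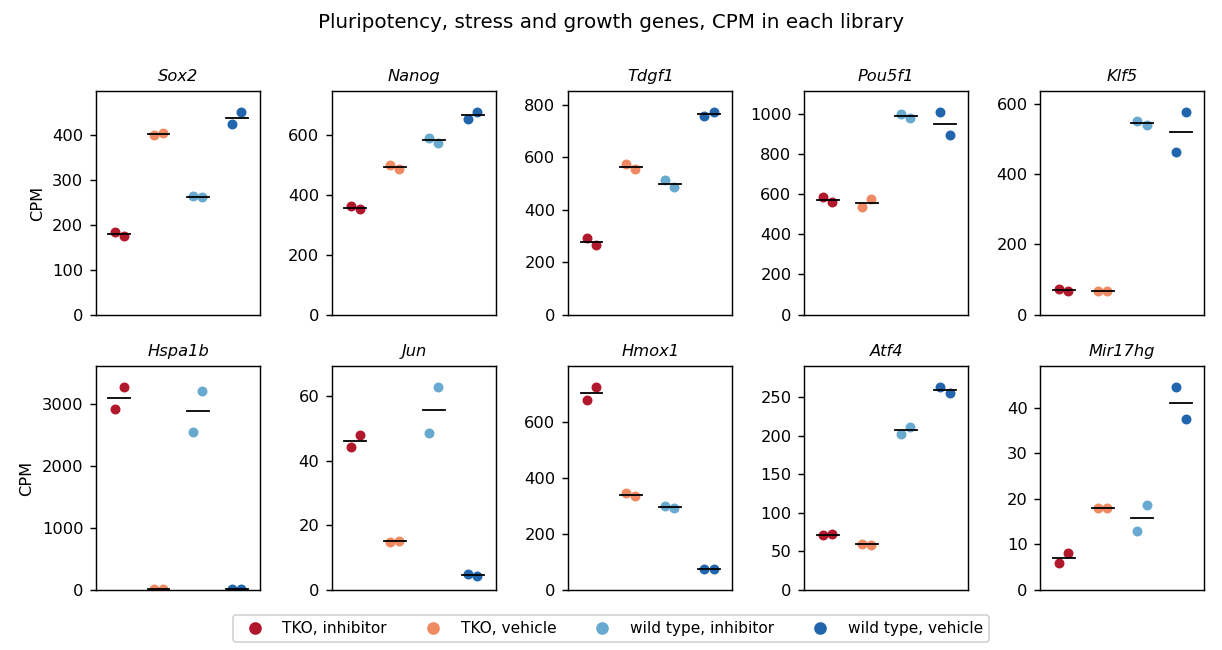
CPM of 10 genes in each of the 8 libraries, with a bar at the mean of each pair. Sox2, Nanog, Tdgf1 and Mir17hg have their lowest pair in TKO inhibitor cells (red); Pou5f1, Klf5 and Atf4 are low in both TKO groups, Hspa1b and Jun are high in both inhibitor groups, and Hmox1 is highest in TKO inhibitor cells.

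Heat shock genes marked the inhibitor's share of the combined state. Of 32 heat shock chaperones 20 were called higher and 7 lower against wild-type vehicle cells, and 25 were called higher and 2 lower against TKO vehicle cells. Hspa1b, a stress-induced HSP70, had 2920 and 3280 CPM in TKO inhibitor libraries, 13.8 and 15.5 CPM in TKO vehicle libraries, 2550 and 3210 CPM in wild-type inhibitor libraries, and 11.1 and 10.3 CPM in wild-type vehicle libraries. The inhibitor groups overlapped at Hspa1b, and the log2 difference between them was 0.10 (adjusted p = 0.2, edgeR quasi-likelihood test). Hspa1a, its near-identical copy, had 1140 and 1270 CPM in TKO inhibitor libraries and 0.749 and 1.3 CPM in wild-type vehicle libraries, and reads of the 2 copies may be split between them. Hsph1, an HSP70 exchange factor, had 1570 and 1670 CPM in TKO inhibitor libraries, against 264 and 253 CPM in wild-type vehicle libraries. Dnajb1, a stress-induced co-chaperone, had 432 and 463 CPM in TKO inhibitor libraries, 98.8 and 97.4 CPM in TKO vehicle libraries, 260 and 303 CPM in wild-type inhibitor libraries, and 59.1 and 62.4 CPM in wild-type vehicle libraries, and lay above all other groups. Among the members called lower against wild-type vehicle cells, Hspd1, of mitochondria, had 1600 and 1610 CPM in TKO inhibitor libraries, against 2610 and 2420 CPM in wild-type vehicle libraries. Hspd1 was nonetheless called higher with the inhibitor in TKO cells (0.30) and in wild-type cells (0.31), and lower in TKO inhibitor cells than in wild-type inhibitor cells (−0.95). Hspa5, of the endoplasmic reticulum, had 600 and 586 CPM, against 922 and 871 CPM. Of 40 DnaJ co-chaperones 22 were called lower and 11 higher, Dnajc3 with 59.2 and 56.8 CPM in TKO inhibitor libraries against 209 and 195 CPM.

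Proteasome genes fell together by small amounts. Of 46 tested subunits 39 were called lower and 3 higher (median −0.31), and 40 were called lower against wild-type inhibitor cells. Psme2, an activator subunit, had 24.3 and 24.1 CPM in TKO inhibitor libraries, against 53.4 and 48.9 CPM in wild-type vehicle libraries. Psma8, the alpha subunit of the spermatocyte proteasome, rose to 23.0 and 23.3 CPM, against 9.59 and 9.15 CPM. Among 43 integrated stress response genes, 26 were called lower and 11 higher (median −0.32), although against TKO vehicle cells 22 were called higher and 3 lower (14 higher without TKO vehicle replicate 2). Atf4, its central transcription factor, had 70.8 and 71.9 CPM in TKO inhibitor libraries, 58.9 and 58.4 CPM in TKO vehicle libraries, 202 and 212 CPM in wild-type inhibitor libraries, and 264 and 256 CPM in wild-type vehicle libraries. The inhibitor was followed by opposite steps at Atf4, 0.28 in TKO and −0.33 in wild-type cells, which differed by 0.61 (adjusted p = 2.09e-06, edgeR). Phgdh, an ATF4 target of serine synthesis, had 68.2 and 62.2 CPM in TKO inhibitor libraries, against 171 and 157 CPM in wild-type vehicle libraries.

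Oxidative stress targets of NRF2 divided, with 15 called higher and 17 lower of 37, of which 1 had no wild-type vehicle count and its direction fixed by the filter. Hmox1, heme oxygenase 1, had 680 and 727 CPM in TKO inhibitor libraries, 347 and 334 CPM in TKO vehicle libraries, 299 and 292 CPM in wild-type inhibitor libraries, and 73.5 and 75.3 CPM in wild-type vehicle libraries. Each perturbation alone raised Hmox1, and the inhibitor's step was smaller in TKO cells (1.05) than in wild-type cells (1.99; difference −0.94, adjusted p = 2.54e-09, edgeR). Sqstm1, the autophagy receptor p62, had 329 and 337 CPM in TKO inhibitor libraries, against 104 and 101 CPM in wild-type vehicle libraries, whereas Gsta4, a glutathione transferase, fell to 123 and 115 CPM, against 299 and 269 CPM. Of 26 immediate early genes 21 were called higher and 5 lower (median 1.12), 17 were called higher against TKO vehicle cells, and 8 lay above all other groups. Egr1 had 30.1 and 30.8 CPM in TKO inhibitor libraries, 22.3 and 17.5 CPM in TKO vehicle libraries, 15.2 and 15.5 CPM in wild-type inhibitor libraries, and 4.78 and 4.96 CPM in wild-type vehicle libraries. Jun had 44.4 and 47.9 CPM in TKO inhibitor libraries, 14.9 and 15.1 CPM in TKO vehicle libraries, 48.7 and 63.0 CPM in wild-type inhibitor libraries, and 4.74 and 4.31 CPM in wild-type vehicle libraries. Atf3, which pairs with Jun family proteins, had 13.4 and 15.7 CPM in TKO inhibitor libraries, 7.38 and 6.81 CPM in TKO vehicle libraries, 23.5 and 23.6 CPM in wild-type inhibitor libraries, and 2.21 and 1.74 CPM in wild-type vehicle libraries. The inhibitor's step at Atf3 was smaller in TKO cells (1.03) than in wild-type cells (3.58). That difference was −2.555 (adjusted p = 2.54e-09, edgeR quasi-likelihood test). Of 41 p53 targets 27 were called higher and 10 lower (median 0.24). Cdkn1a, the cell cycle inhibitor p21, had 42.2 and 45.4 CPM in TKO inhibitor libraries, against 17.3 and 19 CPM in wild-type vehicle libraries, and Gadd45g had 24.7 and 26.1 CPM, against 1.32 and 0.807 CPM.

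Genes of the cell cycle and DNA replication were lower. Of 59 tested, 37 were called lower and 12 higher (median −0.26; 19 higher with library size alone as the scale), 42 were called lower against wild-type inhibitor cells, and 14 lay below all other groups. E2f2, an activator of replication genes, had 17.5 and 17.6 CPM in TKO inhibitor libraries, 21.1 and 22.4 CPM in TKO vehicle libraries, 49.9 and 51.8 CPM in wild-type inhibitor libraries, and 80.5 and 82.2 CPM in wild-type vehicle libraries. Pcna, the replication clamp, had 297 and 277 CPM in TKO inhibitor libraries, 365 and 373 CPM in TKO vehicle libraries, 470 and 476 CPM in wild-type inhibitor libraries, and 533 and 505 CPM in wild-type vehicle libraries. Both lay below the other groups. Ccnd3, a D-type cyclin, was not called between the TKO groups, at 250 and 229 CPM in TKO inhibitor libraries against 923 and 1070 CPM in wild-type vehicle libraries. Cdkn2a, the Ink4a-Arf locus that PRC1 represses in many cells, had 11.7 and 9.57 CPM in TKO inhibitor libraries, 11.4 and 10.9 CPM in TKO vehicle libraries, and 0.490 to 0.683 CPM in the wild-type libraries. Myc had 63.8 and 58.4 CPM in TKO inhibitor libraries, against 128 and 151 CPM in wild-type vehicle libraries, while Mycn had 93.4 and 90.2 CPM, against 36.0 and 37.1 CPM. Among metabolic lists the counts were close to even, with 14 of 38 glycolysis and hypoxia genes called higher and 13 lower, and 10 of 32 cholesterol and fatty acid genes called higher and 14 lower. Hk2, a hexokinase, fell to 170 and 168 CPM in TKO inhibitor libraries, against 505 and 470 CPM in wild-type vehicle libraries, and lay below all other groups. Of 32 interferon response genes 16 were called higher and 12 lower, and of 9 aryl hydrocarbon receptor targets 5 were called higher and 3 lower. In each of these 2 lists 1 member had no wild-type vehicle count, so the filter fixed its direction.

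Transcripts encoded in mitochondria were lower in the combined state, but the count rested on single control libraries: of 14 tested, 8 were called lower and 1 higher, against 13 lower without wild-type vehicle replicate 1 and 6 higher without wild-type vehicle replicate 2. mt-Nd1, a complex I subunit, had 1270 and 1490 CPM in TKO inhibitor libraries, 3530 and 3460 CPM in TKO vehicle libraries, 1130 and 1150 CPM in wild-type inhibitor libraries, and 2790 and 3720 CPM in wild-type vehicle libraries. mt-Co2, of complex IV, had 2680 and 2800 CPM in TKO inhibitor libraries, against 3490 and 3970 CPM in wild-type vehicle libraries. Both went with the inhibitor. Of 76 small nucleolar RNA genes in these poly(A)-selected libraries, 49 were called lower and 2 higher, with a median of −1.03. They too went with the inhibitor: 49 were called lower against TKO vehicle cells (median −1.16). With the inhibitor in wild-type cells 57 were called lower (median −1.67). Against wild-type inhibitor cells TKO inhibitor cells had 14 called higher and 0 lower (median 0.50), beside 36.5% and 34.7% of all genes.

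Counts for the chromatin machinery stand beside the 77.1% of all genes called in either direction, and those for DNA methylation genes and germline repressors were near that share. Of 29 tested PRC1 subunits 16 were called higher and 11 lower (median 0.33). Bmi1, the PCGF subunit of a canonical PRC1, had 50.9 and 54.7 CPM in TKO inhibitor libraries, 30.9 and 29.4 CPM in TKO vehicle libraries, 15.3 and 17.2 CPM in wild-type inhibitor libraries, and 9.74 and 9.65 CPM in wild-type vehicle libraries. Bcor, the scaffold of a variant PRC1, had 131 and 137 CPM in TKO inhibitor libraries, 111 and 114 CPM in TKO vehicle libraries, and 26.4 and 28.4 CPM in wild-type vehicle libraries. Both lay above all other groups. Scml2, an X-linked PRC1 partner of the germline, had 45.8 and 49.2 CPM, against 1.5 and 1.15 CPM in wild-type vehicle libraries. Rnf2, the main catalytic subunit in stem cells, had 120 and 119 CPM in TKO inhibitor libraries, 122 and 127 CPM in TKO vehicle libraries, 303 and 300 CPM in wild-type inhibitor libraries, and 311 and 309 CPM in wild-type vehicle libraries. Rnf2 lies on chromosome 1. Cbx7, the chromodomain subunit of stem cells, had 83.2 and 83.9 CPM, against 147 and 160 CPM in wild-type vehicle libraries, and lay below all other groups.

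Of 13 PRC2 subunits 9 were called lower and 2 higher (median −0.24; 4 higher without wild-type vehicle replicate 1 or with library size alone). Of 22 genes of DNA methylation and demethylation, 11 were called lower and 6 higher. Dnmt3l, the catalytically inactive cofactor of the de novo enzymes, had 771 and 753 CPM in TKO inhibitor libraries, 713 and 728 CPM in TKO vehicle libraries, 141 and 138 CPM in wild-type inhibitor libraries, and 138 and 127 CPM in wild-type vehicle libraries. Uhrf1, which recruits DNMT1 to replicating DNA, had 518 and 531 CPM, against 440 and 436 CPM in wild-type vehicle libraries. Tet1, the dioxygenase that oxidises methylcytosine, had 519 and 515 CPM in TKO inhibitor libraries and 491 and 453 CPM in wild-type vehicle libraries, and was not called (0.13, adjusted p = 0.0545, edgeR). It was called with median-ratio size factors (0.14, adjusted p = 0.0385), with library size alone (0.27), in a fit on the 4 libraries (0.12), and without wild-type vehicle replicate 1 (0.17) or either TKO vehicle replicate (0.12 each). Tet2 fell to 127 and 126 CPM, against 209 and 219 CPM. Of 26 chromatin repressors of germline genes 12 were called lower and 8 higher (13 higher with library size alone), and of 4 Dppa family genes 2 were called lower and 1 higher, Dppa5a with 629 and 574 CPM in TKO inhibitor libraries against 997 and 834 CPM. With DESeq2, library size alone or without TKO inhibitor replicate 2, 1 Dppa gene was called lower.

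Over all genes averaging at least 1 CPM, members of the lists included, the 10 with the largest fitted rise were H19, Prl7d1, Ctsj, Prl2a1, Ccdc81, Prl2c5, Dnajc5g, Zfy1, Hspa1a and Pramel3. Apart from H19 and Hspa1a, each of them had no count in wild-type vehicle libraries, so their rises are known only as bounds and their order is not ranked. The 10 largest falls were those of Nkx6-3, Tie1, Ptges, Tlx2, Fam20a, Msc, Islr2, Wdr86, Nlgn3 and Xaf1, each by between 3.69 and 6.49 on the log2 scale. Ptges, a prostaglandin E synthase, had 9.12 and 7.24 CPM in TKO inhibitor libraries, 8.77 and 6.67 CPM in TKO vehicle libraries, 92.5 and 91.2 CPM in wild-type inhibitor libraries, and 138 and 132 CPM in wild-type vehicle libraries. Tie1, an endothelial receptor, had 0.958 and 0.870 CPM in TKO inhibitor libraries, against 17.3 and 15.1 CPM in wild-type vehicle libraries, and Islr2 had 11.6 and 9.88 CPM, against 149 and 165 CPM.

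The 2 lines also differed along whole chromosomes. On chromosome 1, 501 of 878 tested genes were called lower and 245 higher (median −0.40), and on chromosome 8, 474 of 834 were called higher and 197 lower (median 0.34), and the other autosomes had a median of 0.01. On the X chromosome 305 of 621 were called higher and 194 lower (median 0.29), and Nxf2, Taf7l, Rhox9, Xlr3c, Plac1 and Scml2 lie there. The medians of chromosomes 1 and 8 were −0.41 and 0.35 when TKO inhibitor cells were set against wild-type inhibitor cells, and −0.02 and 0.03 against TKO vehicle cells. All 7 tested Y-linked genes were called higher in TKO inhibitor cells, with a fitted median of 6.05. Of these 7, 2 had no count in wild-type vehicle libraries, so the filter fixed their direction and their folds are bounds. The same holds for 31 of the tested genes on the X chromosome, 8 on chromosome 1 and 6 on chromosome 8. Genotype and line cannot be told apart in this design, so genes on these chromosomes that are named above, such as Tfcp2l1, Lamc1, Hspd1, Rnf2 and Atf3 on chromosome 1 and Hmox1, Dnajb1, Tex15, Irx5 and Nkx6-3 on chromosome 8, carry both. Without the genes of chromosomes 1, 8 and Y, 5814 of the remaining 14678 genes were called higher and 5389 lower.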

How the data were processed

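RNA from mouse embryonic stem cells was sequenced after poly(A) selection. The authors deposited raw read counts per Ensembl gene in 2 tables, and the submitters' processing notes name Bowtie 0.12.8, TopHat2 2.0.2, HTSeq 0.5.3p9 and mm9, with the strand setting not given in the sources used here. The counts as deposited were fitted in edgeR 4.0.16 (R 4.3.3) with TMM scaling and the quasi-likelihood F-test, two-sided, on the 8 libraries of the inhibitor experiment without a replicate block. Genes were kept by filterByExpr on the 4 libraries compared (minimum count 10, minimum total 15), and p-values were Benjamini-Hochberg adjusted over all 16397 genes with a threshold of 0.05. The spread had 4 residual degrees of freedom before moderation. Untreated cells came from the second table, fitted apart (16303 genes).

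The members and gene lists were chosen with earlier results of these data known. Named genes were the 3 targeted genes, anchor genes, up to 4 called members per list and direction with the smallest p, and the 10 largest changes and 10 furthest genes per direction averaging at least 1 CPM, and 117 of these were recomputed under the alternatives. One named gene is not reported here. Some germline genes above all other groups were added after their values were seen.

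Symbols, chromosomes, biotypes and exon overlaps came from GENCODE vM21, matched by gene ID, and promoters from RefSeq. Promoter windows covered 71.8% of tested genes, under the 80% needed, so promoter CpG classes over all genes were not used. Replicate numbers did not pair the libraries (correlations of deviations −0.0713 to 0.117). Alternatives were other scalings, other filters, DESeq2 1.42.0, a replicate block, a fit on 4 libraries, leaving out each library, and leaving out chromosomes 1, 8 and Y. The test was checked on simulated counts.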

Additional observations from a re-analysis of the deposited data

Results flagged for a closer look

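The response to the inhibitor differed between TKO and wild-type cells at each of the 7 genes listed here (edgeR quasi-likelihood test of the difference, Benjamini-Hochberg adjusted over all genes). These 7 were picked from the named genes, and their calls held in every alternative run for them, so their number says nothing of how common such differences are. Differences were also called at other named genes, among them Atf3 (−2.555), Zic2 (−1.395), Egr1 (−1.038) and Peg10 (0.66). The differences in response of named genes other than the 7, those given above for Nxf2, Tuba3b and Taf7l included, were not recomputed under the alternatives. Their absence here does not mean that a call failed. Over all genes 1.63% were called with a higher response in TKO cells and 2.29% with a lower one.

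Myh14 had a log2 response of 2.34 in TKO cells and 0.17 in wild-type cells, a difference of 2.16. Hmox1 rose by 1.05 in TKO cells and 1.99 in wild-type cells, a difference of −0.94. At Atf4 the responses were 0.28 and −0.33, a difference of 0.61 (adjusted p = 2.09e-06), and the steps ran in opposite directions. At Sox2 they were −1.16 and −0.74, a difference of −0.43, and at Tdgf1 −1.02 and −0.62, a difference of −0.40 (adjusted p = 0.000752). The responses of Dnmt3b were 0.18 and −0.32, a difference of 0.51 (adjusted p = 0.000482), and those of Dnmt1 0.23 and −0.16, a difference of 0.40 (adjusted p = 0.00116).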

How the results depend on the processing

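Over the alternatives run, genes called in the combined comparison numbered 5814 to 7625 higher and 4824 to 6240 lower. Of genes above all other groups, 1062 in the report, 621 were called by DESeq2 and 528 to 1126 when 1 library was left out; of the 1038 below, 585 to 1404 were called when 1 library was left out. The cause was not tested. None of the named genes' log2 differences reversed; of 1755 recomputed, 1749 kept direction and side of the threshold and 6, all of Tet1, passed it where the report's did not. Of 1870 recomputed counts of list members, 60 moved by over 1.5 times, most of them counts under 10.

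The labels number the replicates, and with the number as a block the combined comparison called 6515 higher and 6059 lower, and 1016 and 1017 genes lay above and below all other groups. With 2 libraries a group, genes under about 1 CPM rest on few reads, and folds against a group without counts are bounds that cover counting error only.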
